A study of Homo sapiens with 6 samples.

Results

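The Notch pathway was followed in MDA-MB-231, a cell line from triple-negative breast cancer, through 10 genes taken by symbol from the expression table: the ligands JAG1 and JAG2, the receptors NOTCH1, NOTCH2 and NOTCH3, the transcription partners RBPJ and MAML1, and the targets HES1, HEY1 and NRARP. All 10 were among the 25365 rows of the table. RNA was sequenced from 3 si-Control libraries (cells given the negative control siRNA, Ambion AM4611) and 3 si-NRDE2-2 libraries (cells given 1 siRNA against NRDE2, Ambion s30064). Both siRNAs were used at 20 nM and RNA was taken at 48 h, so transfection is common to both groups and there was no untransfected group. NRDE2 is a nuclear protein of RNA metabolism, and the comparison asks what its depletion does to the mRNA profile. JAG1 and RBPJ led to the choice of these genes because they rose strongly in this same comparison, so the values of the 10 genes are given as a description, without a test.

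Notch is a cell-contact signal. A Jagged or Delta ligand on 1 cell binds a Notch receptor on its neighbour, ADAM proteases and then gamma-secretase cut the receptor, and the freed intracellular part enters the nucleus. There it joins the DNA-binding protein RBPJ and a Mastermind coactivator such as MAML1, and genes including HES1, HEY1 and NRARP are transcribed. Without the cleaved receptor RBPJ can sit on DNA with corepressors. In breast cancer JAG1 is known as a ligand linked to the basal-like and triple-negative forms.

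Values are FPKM (fragments scaled to transcript length and to library depth) as the authors deposited them, a scale set per length, on which genes can be compared with each other. NRDE2 mRNA was 3.80 to 4.45 FPKM in the si-Control libraries and 0.229 to 0.234 FPKM in the si-NRDE2-2 libraries, which fits the label of every library. The estimated depth ran from 40700000 to 56000000 fragments. The mesenchymal gene VIM was at 1200 ± 64.9 FPKM in si-Control (SD, n = 3), whereas the hormone receptor genes ESR1 and PGR stayed below 0.01 FPKM. ERBB2 was expressed, at 12.8 ± 0.166 FPKM in si-Control. Of other genes taken as low or absent in this line, EPCAM was at 8.20 ± 0.367 and CDH1 at 0.408 ± 0.0373 FPKM in si-Control. The luminal genes GATA3 and FOXA1 were at 2.09 ± 0.167 and 0.0303 ± 0.0149 FPKM in si-Control. The leukocyte gene PTPRC and the endothelial gene CDH5 were below 0.1 FPKM in every library, and the endothelial gene PECAM1 was at 0.525 to 0.688 FPKM in si-Control and 0.958 to 1.18 FPKM in si-NRDE2-2. The labels do not state that replicates came from separate cultures, so errors and p-values cover the spread between libraries alone, and that spread may be technical. In bulk RNA a higher level per cell and a larger share of cells with the transcript cannot be told apart.

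A pair of sequence features was looked up for the 10 genes. Both are descriptions, and their part in the changes was not tested. The letters GTGGGAA, the core recognised by RBPJ, were searched on both strands of RefSeq promoter windows (GRCh38.p14) that run from 250 bases before to 50 after a gene start. They occurred in 6.25% of 35116 windows, and the shorter TGGGAA, which they contain, occurred in 24.0%. These shares are per window and not per gene, so a gene with several windows, such as RBPJ, has more chances of a match. Of the 10 genes 9 had a window. HES1 and RBPJ had GTGGGAA, whereas JAG1, JAG2, NOTCH1, NOTCH2, NOTCH3, MAML1 and NRARP had neither string in theirs. The HES1 promoter had GTGGGAA starting at -85 from the gene start and a second TGGGAA starting at -70. RBPJ has 5 windows for its several starts, and 1 of them held GTGGGAA on the reverse strand (starting at -115) and again on the forward strand (starting at -73). The matches are shown because HES1 and RBPJ rose, with the motif or its reverse complement in capitals:
HES1, chr3:194136052-194136080, + strand: tgaaagttactGTGGGAAagaaagtttgg
HES1, chr3:194136067-194136094, + strand: gaaagaaagttTGGGAAgtttcacacga
RBPJ, chr4:26319620-26319648, + strand: gtttaggaaatTTCCCACggccgtgttgt
RBPJ, chr4:26319662-26319690, + strand: agtggaaggcgGTGGGAAggaggtgtagc

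The second feature lies in the 3′ UTR. An earlier scan of these same fold changes picked GACGTA and, with it, the longer GACAGTA as well as GACTGTA, since genes that carry them were often higher with si-NRDE2-2, so their presence is no independent evidence. On the sense strand of 1 transcript per gene in GENCODE release 29 (GRCh38), JAG1 had GACGTA at position 399 of its 1814-base 3′ UTR. RBPJ had GACGTA at position 967 and GACAGTA at position 1323 of a 3′ UTR of 4121 bases. The 3′ UTRs of the other 8 genes, HES1 among them, had none of the 3 strings. GACGTA lay in the 3′ UTR of 3.96% and any of the 3 strings in 18.1% of the 10682 tested genes with an annotated 3′ UTR. The matches are shown because they are in the 2 genes of the set that rose most, with the string in capitals:
JAG1, chr20:10639083-10639110, - strand: ggttttatgatGACGTAcaagtagttct
RBPJ, chr4:26431963-26431990, + strand: ccttttcccatGACGTAaatacataggt
RBPJ, chr4:26432319-26432347, + strand: aatagctggaaGACAGTActttagaaaca

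Of the ligands, JAG1 was high and changed much, and JAG2 was low and did not move beyond its spread. JAG1, a membrane-bound ligand, was at 19.2, 18.6 and 19.2 FPKM in the si-Control libraries, given here and below in the order of replicates 1 to 3, and at 51.9, 53.2 and 53.7 FPKM in the si-NRDE2-2 libraries. Every si-NRDE2-2 library was far above every si-Control library, and the libraries of a group lay close together. Group means were 19.0 ± 0.358 and 52.9 ± 0.951 FPKM (SD, n = 3 each), with a ratio of 2.79 and a log2 change of 1.47 ± 0.04 (SE) on log2(FPKM + 0.1), the 17th largest rise of 11790 genes tested. JAG2, the second Jagged ligand, was at 1.08, 1.01 and 1.04 FPKM in si-Control and 1.08, 0.944 and 0.965 FPKM in si-NRDE2-2. Its groups overlapped, with si-NRDE2-2 replicate 1 above all 3 si-Control libraries (log2 change -0.06 ± 0.10). JAG1 therefore made up 94.8% ± 0.0869 of the summed Jagged FPKM in si-Control and 98.1% ± 0.169 in si-NRDE2-2.

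The receptors kept their order, and the groups overlapped for each of them. NOTCH2 was the main receptor mRNA, at 38.6, 39.2 and 32.9 FPKM in si-Control and 32.8, 35.8 and 36.0 FPKM in si-NRDE2-2. The groups overlapped, because si-Control replicate 3 lay among the si-NRDE2-2 libraries (means 36.9 ± 3.46 and 34.9 ± 1.77 FPKM, log2 change -0.08 ± 0.07). NOTCH2 shares near-identical sequence with NOTCH2NL, which was listed at 7.99 ± 0.338 and 7.10 ± 0.415 FPKM, and the sources used here do not say how reads were divided between them. NOTCH1 was at 5.42, 5.75 and 4.94 FPKM in si-Control and 5.87, 5.43 and 5.66 FPKM in si-NRDE2-2, again with overlapping groups (log2 change 0.07 ± 0.07). NOTCH3 was close to absent, from 0.111 to 0.144 FPKM in si-Control and from 0.113 to 0.149 FPKM in si-NRDE2-2. That level is about 51 to 65 fragments per library, for which counting alone gives an SD of 14.0%. NOTCH2 made up 87.0% ± 0.404 of the summed receptor FPKM in si-Control and 85.7% ± 1.09 in si-NRDE2-2, and the sum itself was 42.4 ± 3.83 and 40.6 ± 1.59 FPKM.

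The nuclear partners went apart. RBPJ, the DNA-binding protein of the pathway, was at 22.5, 21.4 and 21.1 FPKM in si-Control and 48.7, 53.0 and 54.2 FPKM in si-NRDE2-2. The groups were well separated, and si-NRDE2-2 replicate 1 was the lowest of its group. Group means were 21.7 ± 0.698 and 52.0 ± 2.91 FPKM, with a ratio of 2.40 and a log2 change of 1.26 ± 0.05, the 37th largest rise. MAML1, which bridges RBPJ and the receptor fragment to acetyltransferases, was at 13.8, 14.1 and 12.5 FPKM in si-Control and 11.7, 12.3 and 12.1 FPKM in si-NRDE2-2. Its groups did not overlap, but si-Control replicate 3 came within 0.2 FPKM of the highest si-NRDE2-2 library (log2 change -0.16 ± 0.06). RBPJ mRNA was 1.61 ± 0.0844 times that of MAML1 in si-Control and 4.31 ± 0.157 times in si-NRDE2-2.

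The 3 targets did not move as a block. HES1, a repressor that is the best-known direct target of RBPJ, was at 6.18, 6.47 and 7.004 FPKM in si-Control and at 11.7 FPKM in each si-NRDE2-2 library. All 3 si-NRDE2-2 libraries were above all si-Control libraries, and they differed among themselves by less than 0.1 FPKM. Group means were 6.55 ± 0.421 and 11.7 ± 0.0480 FPKM, with a ratio of 1.79 and a log2 change of 0.83 ± 0.06, the 136th largest rise. HEY1, a related repressor, was at 0.516, 0.652 and 0.588 FPKM in si-Control and 0.720, 0.803 and 0.657 FPKM in si-NRDE2-2. Its groups were separated only by the gap between 0.652 and 0.657 FPKM, and its ratio of means was 1.24. NRARP, an inhibitor made in response to Notch that binds the same complex, was at 0.905, 0.812 and 0.799 FPKM in si-Control and 0.731, 0.652 and 0.531 FPKM in si-NRDE2-2. NRARP was thus lower in every si-NRDE2-2 library, with a ratio of means of 0.761. HEY1 and NRARP rest on about 61 to 95 and 38 to 86 fragments per library, where counting alone gives SDs of up to 12.8% and 16.2%.

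**Figure D1:**
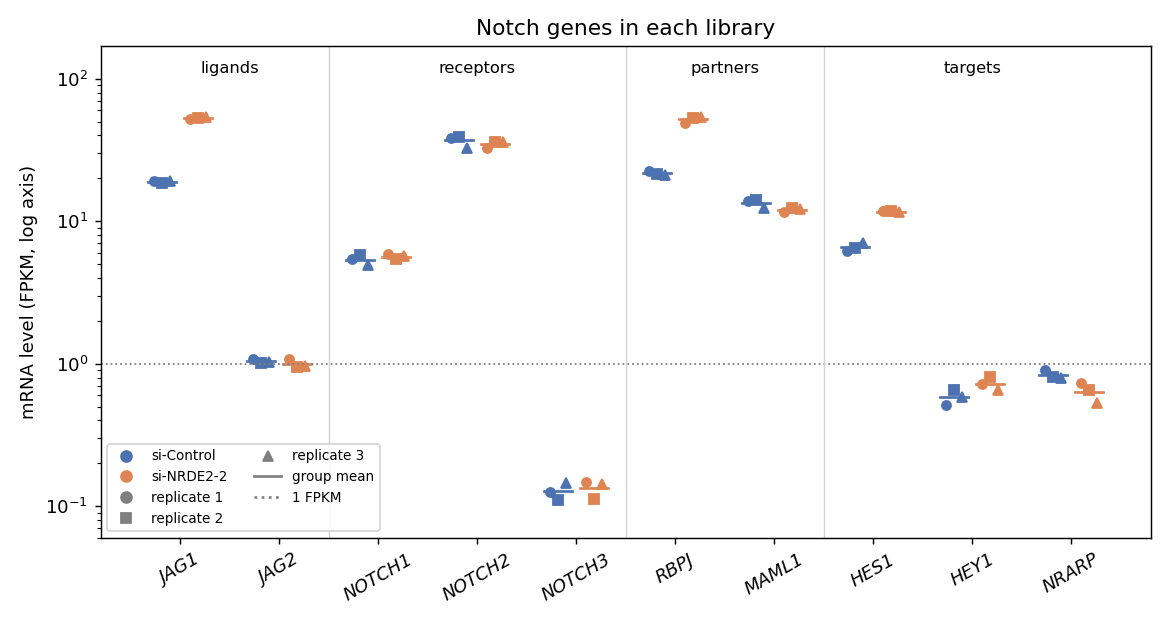
mRNA level in FPKM on a log axis for the 10 Notch genes in 3 si-Control (blue) and 3 si-NRDE2-2 (orange) libraries, with a marker shape per replicate and a line at each group mean. JAG1, RBPJ and HES1 are higher in all 3 si-NRDE2-2 libraries, while the receptors overlap and NOTCH3, HEY1 and NRARP lie below the dotted line at 1 FPKM.

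Of the 10 genes 7 passed the filter of at least 1 FPKM in at least 3 libraries, and NOTCH3, HEY1 and NRARP did not. In the limma fit across 11790 genes with an adjusted p under 0.05, JAG1, RBPJ and HES1 were called higher, MAML1 lower and JAG2, NOTCH1 and NOTCH2 neither. Over all genes tested 44% were called, 20.9% higher and 23% lower. Since this comparison chose the genes, these calls only describe the genes, and nothing is read from the 4 of 7 called. The groups did not overlap for these 4 genes, nor for HEY1 and NRARP, against 53.5% of all tested genes and 39.6% of all rows above 0 in any library. For MAML1 the call was held in 4 of 12 alternative settings, and leaving out any library except si-Control replicate 3 ended it, with log2 changes from -0.21 to -0.13.

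**Figure D2:**
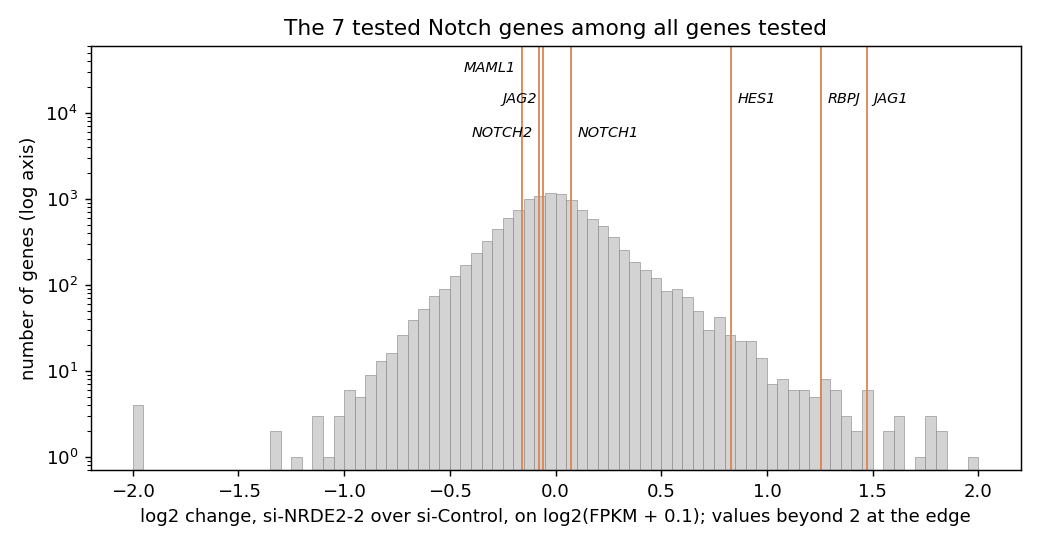
Number of genes (log axis) by log2 change of si-NRDE2-2 over si-Control for the 11790 genes tested, with the 7 tested Notch genes as vertical lines. JAG1 (1.47), RBPJ (1.26) and HES1 (0.83) lie in the upper tail, and the other 4 lie between -0.16 and 0.07.

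The order of the 10 mRNAs by level differed between the groups at the top and at the bottom. In si-Control it was NOTCH2, RBPJ, JAG1, MAML1, HES1, NOTCH1, JAG2, NRARP, HEY1 and NOTCH3, and no neighbours in that order overlapped. In si-NRDE2-2 JAG1 and RBPJ came first, with overlapping libraries, and NOTCH2 came after them. MAML1 and HES1 also overlapped there, as did HEY1 and NRARP. JAG1 mRNA was 0.518 ± 0.0564 times that of NOTCH2 in si-Control and 1.52 ± 0.0526 times in si-NRDE2-2. HES1 rose less than RBPJ, and its ratio to RBPJ was 0.303 ± 0.0283 in si-Control and 0.226 ± 0.0135 in si-NRDE2-2. The ratio of the targets HES1 and NRARP was 7.85 ± 0.973 in si-Control and 18.7 ± 2.99 in si-NRDE2-2. The groups did not overlap for any of these 3 ratios, which do not depend on how libraries were scaled to each other. JAG1 and NOTCH2 differ in transcript length, as do HES1 and RBPJ, so a library shift linked to length can still enter their ratios. JAG1 and RBPJ were chosen for their rise, so the separation of ratios that hold them is no further result. HES1 was higher and NRARP lower in every si-NRDE2-2 library. The separation of their ratio follows from those values and is no further result either. NRARP rests on about 38 to 86 fragments per library.

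**Figure D3:**
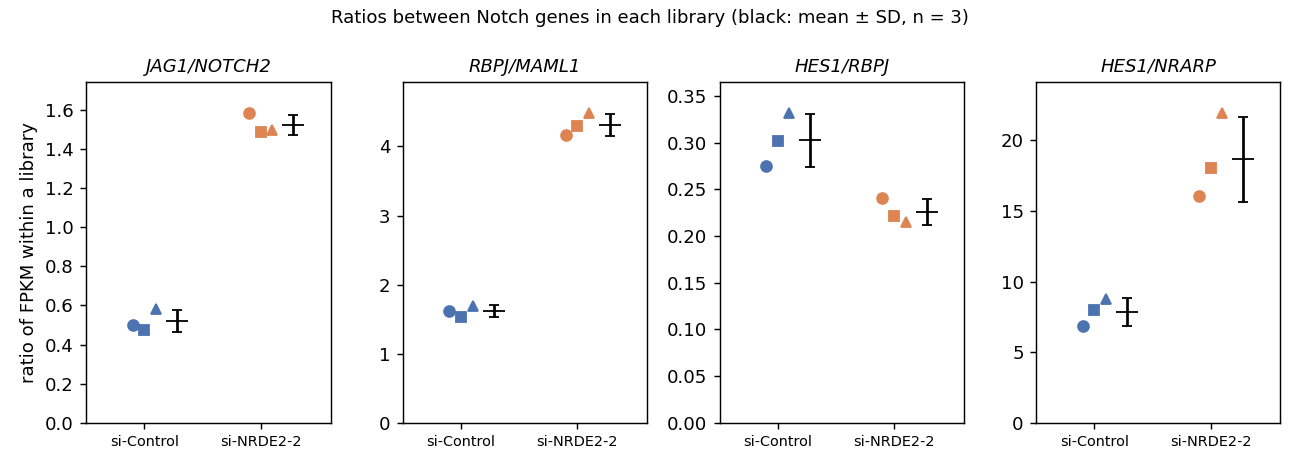
Ratio of FPKM values within each library for JAG1/NOTCH2, RBPJ/MAML1, HES1/RBPJ and HES1/NRARP in 3 si-Control (blue) and 3 si-NRDE2-2 (orange) libraries, with the mean ± SD in black and a marker shape per replicate. HES1/RBPJ is lower and the other 3 ratios are higher in all si-NRDE2-2 libraries.

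Libraries differed in a way that went with transcript length over all genes, most strongly in si-Control replicate 3. Only some of the long transcripts of the set followed that library. In si-Control replicate 3 the median log2 difference from the other si-Control libraries was -0.08 for the third of tested genes with the longest transcripts and 0.10 for the third with the shortest. NOTCH2, NOTCH1 and MAML1, whose transcripts are 11389, 9306 and 5723 bases long, were lower in that library by log2 differences of -0.24, -0.17 and -0.16. JAG1, RBPJ and JAG2, at 5940, 5990 and 5835 bases, were at 0.02, -0.05 and -0.01, and NOTCH3, at 8666 bases and few fragments, was at 0.16. Without that library the log2 change was -0.16 for NOTCH2 and -0.21 for MAML1, against 1.48 for JAG1, 1.24 for RBPJ and 0.88 for HES1. NOTCH2 then passed the threshold on the adjusted p and was called lower, which it was in 1 of 12 alternative settings.

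The rest of the pathway moved in both directions. A list of 72 other Notch pathway genes was set by role, and 58 of them passed the filter. Of these 18 rose, 12 fell and 28 were not called, which is 51.7% called against 44% of all genes tested, with a median log2 change of 0.04 against -0.02. Without si-Control replicate 2 the number that fell was 7. All p-values below are from limma with Benjamini-Hochberg adjustment over 11790 genes, with n = 3 per group.

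Other ligands and receptors were scarce. DLL1, DLL3, DLL4 and DLK1 were below 0.14 FPKM in every library and NOTCH4 was listed at 0 throughout, so none of them was tested. Of the other roles, NEURL1 (0.262 to 0.391 FPKM) and DTX1, DTX4, TLE2 and TLE4 (at most 0.139 FPKM) were not tested either. DLK2, a Delta-like protein without the domain that canonical ligands use to bind Notch, fell from 3.85 ± 0.351 to 3.07 ± 0.292 FPKM (log2 change -0.32 ± 0.09, adjusted p = 0.0136). Leaving out si-Control replicate 2 (adjusted p = 0.0682) or si-NRDE2-2 replicate 3 (adjusted p = 0.0518) ended that call (range 0.00729 to 0.0682). Among 5 tested genes of ligand endocytosis, the step by which a bound ligand pulls on the receptor, MIB1 rose, EPN1 and MIB2 fell and EPN2 and NEURL1B were not called. That is 60% called against 44% of all genes tested. The ubiquitin ligase gene MIB1, whose product acts on Jagged and Delta ligands, went from 8.76 ± 0.738 to 11.3 ± 0.990 FPKM (0.37 ± 0.08, adjusted p = 0.00262). The epsin gene EPN1 changed by -0.20 ± 0.05 (adjusted p = 0.00895). MIB2 changed by -0.24 ± 0.08 (adjusted p = 0.0296), its groups overlapped, and its call was held in 7 of 12 settings (range 0.00155 to 0.106). It ended when replicate 2 or 3 of si-Control or of si-NRDE2-2 was left out (adjusted p = 0.0603, 0.0938, 0.106 and 0.1).

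Of 7 genes of receptor maturation 5 rose and 0 fell, where 20.9% of all genes tested rose and 23% fell. EOGT, which adds N-acetylglucosamine to the receptor, went from 2.62 ± 0.0863 to 4.37 ± 0.278 FPKM (0.71 ± 0.07, adjusted p = 1.57e-05). The Fringe glycosyltransferase gene LFNG, whose product tunes which ligand a receptor answers to, went from 5.91 ± 0.308 to 8.13 ± 0.178 FPKM (0.45 ± 0.06, adjusted p = 9.1e-05). The other Fringe genes MFNG and RFNG were not called. FURIN, which makes the first cut in the receptor, changed by 0.24 ± 0.04 (adjusted p = 0.000909), and POGLUT1 and POFUT1 by 0.22 ± 0.06 and 0.16 ± 0.04.

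Of 7 receptor cleavage genes ADAM10 rose, PSEN2 fell and 5 were not called, which is 28.6% called against 44% of all genes tested. ADAM10, the protease of ligand-induced cleavage, went from 44.0 ± 0.898 to 58.4 ± 3.79 FPKM (0.40 ± 0.05, adjusted p = 0.000104), whereas ADAM17 was at 23.7 ± 0.321 and 24.0 ± 0.898 FPKM. PSEN2, which encodes a catalytic subunit of gamma-secretase, went from 14.6 ± 0.260 to 11.3 ± 0.253 FPKM (-0.37 ± 0.05, adjusted p = 8.41e-05). The subunit genes NCSTN, APH1A, APH1B and PSENEN had log2 changes from -0.05 to 0.04. Of 9 genes of receptor turnover 1 rose and 3 fell, which is 44.4% called, close to the 44% of all genes tested. The ubiquitin ligase gene NEDD4 changed by 0.43 ± 0.06 (adjusted p = 0.000111), and NUMBL, a relative of the Notch inhibitor NUMB, by -0.34 ± 0.06 (adjusted p = 0.000608). NUMB itself was the third that fell, by a log2 change of -0.12 ± 0.04. The Deltex gene DTX2 changed by -0.22 ± 0.07 (adjusted p = 0.0182), a call that ended when si-Control replicate 2 or si-NRDE2-2 replicates 2 or 3 were left out (adjusted p = 0.0573, 0.0795 and 0.0636, range 0.000384 to 0.0795).

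Around RBPJ, the largest changes were in CCNC, KAT2A and HDAC1. Of 9 genes listed as coactivators, CCNC and CDK8 among them, 2 rose and 1 fell. That is 33.3% called against 44% of all genes tested. CCNC encodes cyclin C, which with CDK8 marks the receptor fragment for destruction, and it was at 15.0, 14.0 and 14.3 FPKM in si-Control and 25.3, 26.6 and 26.9 FPKM in si-NRDE2-2. These groups were far apart (0.86 ± 0.05, adjusted p = 2.63e-07), while CDK8 was not called (0.04 ± 0.06). The acetyltransferase gene KAT2A was at 20.2, 20.1 and 20.6 FPKM in si-Control and 12.3, 11.2 and 10.9 FPKM in si-NRDE2-2. It fell in every si-NRDE2-2 library (-0.82 ± 0.05, adjusted p = 7.2e-07), and its relative KAT2B was not called. SNW1, an RBPJ-binding and splicing protein, changed by 0.41 ± 0.05 (adjusted p = 4.61e-05). The Mastermind genes MAML2 and MAML3 and the acetyltransferase genes EP300 and CREBBP were not called.

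Of 14 tested corepressor genes 5 rose and 3 fell, which is 57.1% called against 44% of all genes tested. The histone deacetylase gene HDAC1 was at 64.9, 68.2 and 67.9 FPKM in si-Control and 37.1, 39.1 and 36.6 FPKM in si-NRDE2-2. It was lower in all 3 si-NRDE2-2 libraries (-0.83 ± 0.04, adjusted p = 2.02e-07), and its close relative HDAC2 was slightly higher (0.15 ± 0.04, adjusted p = 0.0198). CIR1, a corepressor that binds RBPJ, changed by 0.39 ± 0.04 (adjusted p = 4.72e-05), and CTBP2 by 0.30 ± 0.04 (adjusted p = 0.000229). L3MBTL3 and RITA1, both binders of RBPJ, fell (-0.37 ± 0.08 and -0.16 ± 0.04).

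Of 6 other tested target genes 3 rose and 1 fell, which is 66.7% called against 44% of all genes tested. SNAI2, which encodes the transcription factor SLUG, went from 8.12 ± 0.328 to 12.3 ± 0.336 FPKM (0.60 ± 0.05, adjusted p = 6.32e-06). MYC went from 117 ± 3.40 to 88.6 ± 3.25 FPKM (-0.41 ± 0.05, adjusted p = 4.56e-05), so it moved against HES1. The cyclin D1 gene CCND1 changed by 0.15 ± 0.05. HES4 went from 15.9 ± 2.96 to 21.2 ± 2.51 FPKM with overlapping groups (0.43 ± 0.13, adjusted p = 0.026), and its call was held in 6 of 12 settings (range 0.000832 to 0.0959). It ended when replicate 1 or 2 of si-Control or of si-NRDE2-2 was left out (adjusted p = 0.0959, 0.0605, 0.0752 and 0.0928), and with the replicate number as a block (adjusted p = 0.093). The bHLH targets HES5, HES7, HEY2 and HEYL stayed below 0.34 FPKM and were not tested.

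**Figure D4:**
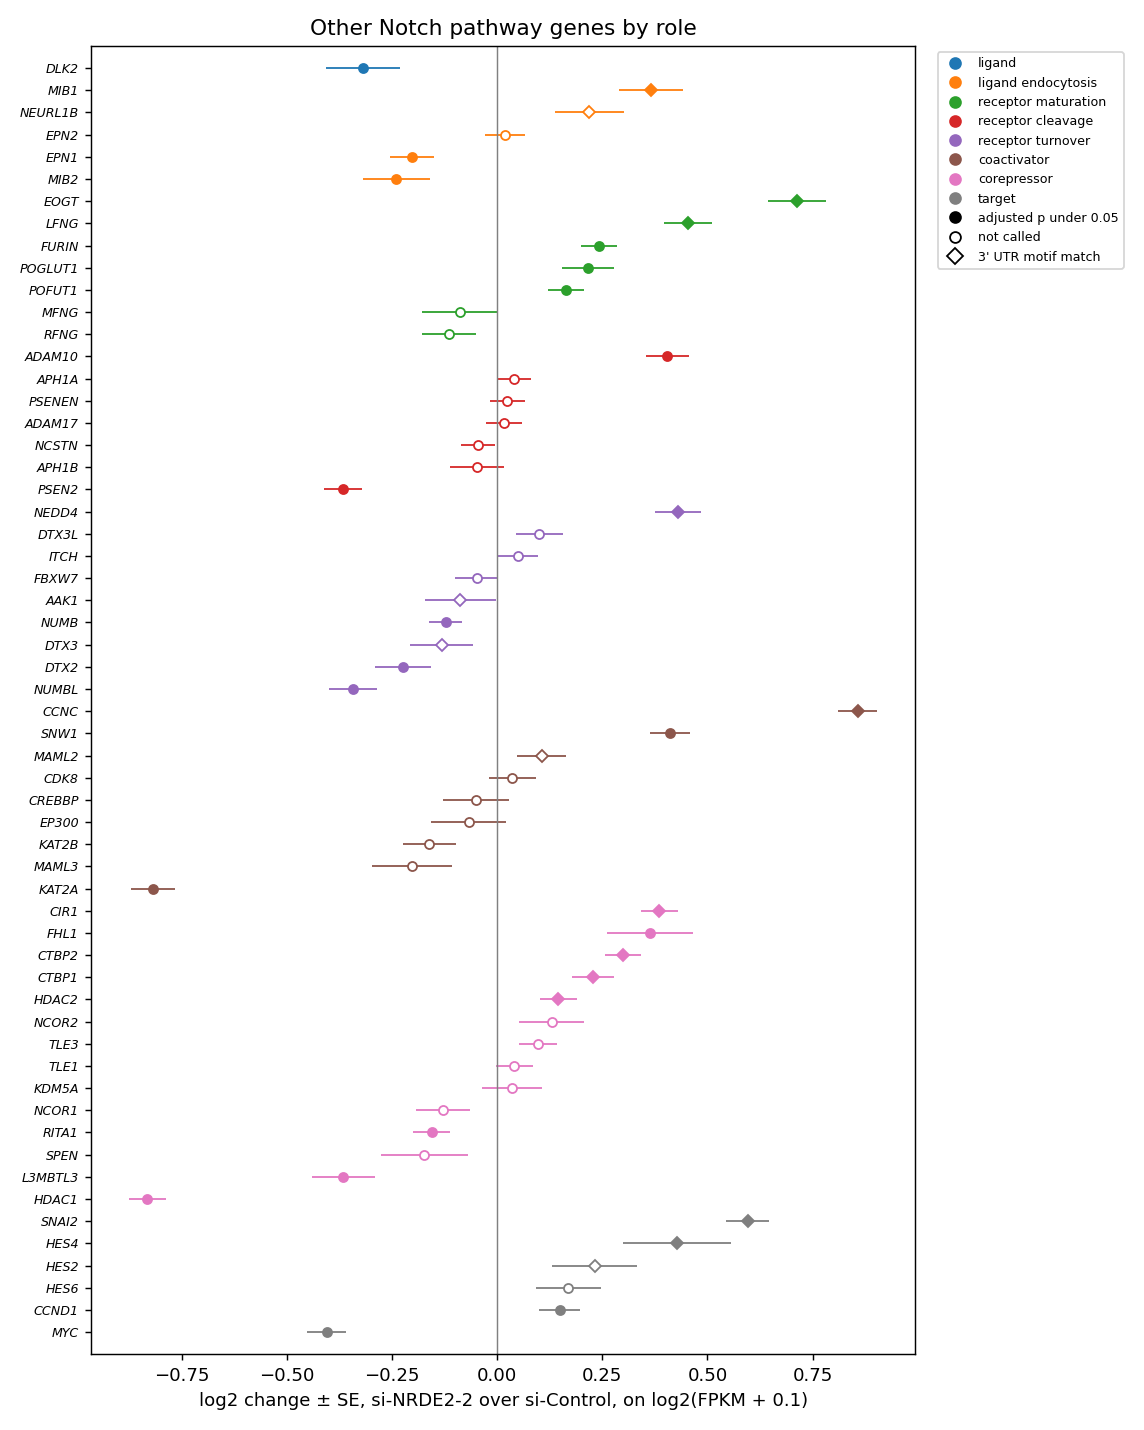
log2 change ± SE of si-NRDE2-2 over si-Control on log2(FPKM + 0.1) for 58 tested Notch pathway genes outside the set of 10, coloured by role, filled where the adjusted p is under 0.05 and drawn as a diamond where the 3′ UTR holds one of the 3 strings. CCNC (0.86) is highest, HDAC1 (-0.83) and KAT2A (-0.82) are lowest, and the filled diamonds all lie above 0.

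All 3 of the 3′ UTR strings were counted in the same list, as a description only since they were picked from these fold changes. GACTGTA is in neither JAG1 nor RBPJ. It was held by 9 of the 58 tested genes of the list, of which 7 rose and 0 fell. Over all 10682 tested genes with a 3′ UTR, 344 of the 975 with GACTGTA rose and 134 fell. Of 58 tested genes, all with an annotated 3′ UTR, 16 held at least 1 of the 3 strings. Of these 16 genes 11 rose and 0 fell (MIB1, EOGT, LFNG, NEDD4, CCNC, CIR1, HDAC2, CTBP1, CTBP2, HES4 and SNAI2), with a median log2 change of 0.33. Of the 42 without them 7 rose and 12 fell, with a median of -0.05. Over all 10682 tested genes with a 3′ UTR, 766 of 1931 with a string rose and 238 fell, with medians of 0.09 with and -0.03 without. ADAM10, FURIN and SNW1 rose without such a string, as did HES1. The part of these strings in the changes was not tested, and with 1 siRNA per group, effects of either siRNA on other transcripts and the loss of NRDE2 cannot be told apart.

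The genes whose pattern over the 6 libraries was nearest to that of JAG1, by Euclidean distance between centred log2 values, were CALU (distance 0.08), FAM49B (0.09) and TAPT1 (0.09). Nearest to RBPJ were NRAS (0.07), ESYT2 (0.08) and PIP4K2A (0.10). NRAS, which encodes a RAS GTPase, went from 17.4 ± 0.188 to 40.6 ± 2.66 FPKM, and CALU, a calcium-binding protein of the endoplasmic reticulum, from 41.8 ± 1.40 to 115 ± 4.71 FPKM. These distances are dominated by the difference between the groups and describe the libraries only.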

How the data were processed

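The deposited table holds 1 FPKM value per gene and library, computed by the authors; its unit was read from the values. The submitters' processing notes name the hg19 build and the tools DESeq2 1.10.1 and STAR 2.5.1b but no role for them. The program behind the FPKM values, its annotation and its strand setting are not given in the sources used here. Another 4 columns, filled in only 3 rows, were not used. An exact 0 can be a failed estimate.

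Small RNA rows were left out, and the 11790 genes that reached 1 FPKM in 3 or more libraries were tested. The fit used limma 3.58.1 (R 4.3.3) on log2(FPKM + 0.1), with group as the only term, a trended and robust prior variance and Benjamini-Hochberg adjustment; a change in log2(FPKM + 0.1) understates that of low genes. For genes under the filter only values are given. The fit was tested on simulated data with independent normal noise per gene. That simulation held no shift linked to transcript length, so it does not cover such shifts. The steps between low FPKM values gave the depth: of 2946 genes whose mean did not pass 0.05 FPKM, 63.4% were in whole multiples within a tolerance of 0.02. Its absolute scale rests on transcript lengths of 812 genes, with quartiles of 45800000 and 57000000 fragments for si-Control replicate 1.

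The 10 genes, the list of 72 and the 3′ UTR strings were chosen with earlier results of these data known. From the list, up to 3 called genes per role were named with full statistics, by smallest adjusted p. Other names were added after their values were seen. One further pathway gene, outside these 72, is not reported here. Coordinates are of GRCh38, not of the authors' build. Alternatives were other pseudocounts, filters and scalings, the replicate number as a block, and each library left out.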

Additional observations from a re-analysis of the deposited data

How the results depend on the processing

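Over 12 alternative settings the log2 changes ran from 1.43 to 1.49 for JAG1, from 1.22 to 1.30 for RBPJ and from 0.75 to 0.88 for HES1. The lowest JAG1 and HES1 values came with a pseudocount of 1. Of the other pathway genes 14 to 18 rose, and the number that fell ran from 7 to 16 when single libraries were left out, 7 being without si-Control replicate 2. The number of all genes called ran from 3927 to 5495. The log2 change of NRDE2 ran from -3.77 to -3.66 when single libraries were left out and was -2.08 with a pseudocount of 1. With the replicate number as a block, 4684 genes were called, 16 pathway genes rose and 11 fell. Correlations of same-numbered libraries were -0.12, 0.10 and -0.12, after each gene was centred within its group. They show no pairing by number, but with 3 libraries per group they cannot exclude it. With no filter on low values the calls of MIB2, DTX2 and HES4 were lost (adjusted p = 0.0835, 0.0577 and 0.0537 from limma). Depth limits NOTCH3, HEY1 and NRARP. For HEY1 and NRARP the ratios of group means were 1.24 and 0.761, where counting alone gives an SD of up to 12.8% and 16.2% in a single library.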
